A study of Mus musculus with 6 samples.

Results

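The cytosolic ribosome is built from ribosomal RNA and a set of proteins, each encoded by its own gene in mouse. Here the genes of these proteins were described in chronic stroke infarcts and in contralateral cortex. They were the protein-coding genes whose symbol begins with *Rpl* or *Rps* followed by a number, with an optional letter or "l" ending, together with *Rplp0*, *Rplp1*, *Rplp2* and *Rpsa*. Pseudogenes and the *Rps6k* kinases were left out. The rule found 84 of the 46078 genes in the count tables, 52 of the large (60S) subunit and 32 of the small (40S) subunit. Another 5 genes with a fitting symbol (*Rpl6l*, *Rps12l1*, *Rps3a2*, *Rps3a3* and *Rps4l*) are annotated as pseudogenes and were not taken.

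The data are 6 libraries, 3 of infarcts and 3 of contralateral cortices, from wild type male C57BL/6J mice aged 3 months. Stroke had been induced 7 weeks earlier by distal occlusion of the middle cerebral artery followed by hypoxia (the DH model), so that both regions came from animals with a stroke and no tissue of unoperated mice was analyzed here. Each library held poly(A) RNA of 1 piece of dissected tissue, with all of its cell types. The libraries are numbered 1 to 3 within a region, and the sample records do not say which infarct and which contralateral cortex belong to the same mouse, nor that each library is a separate mouse. The *p* values below therefore measure the spread between these tissue samples only.

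Ribosomal proteins are made in near equal numbers in growing cells, because each ribosome holds 1 copy of most of them. Their messages typically start with a cytosine followed by a run of pyrimidines, the 5′ terminal oligopyrimidine (TOP) tract, through which their translation follows the activity of the kinase complex mTORC1. Their promoters are active in every cell type, and demand for them is highest in cells that grow, divide or secrete.

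Counts on genes ranged from 12146959 to 13427057 in infarcts and from 11943570 to 19933962 in contralateral cortices. The neuron markers (*Rbfox3*, *Snap25*, *Syt1*, *Slc17a7*, *Gad1*, *Nefl*, *Nefm* and *Nefh*) were detected in every library and summed to 467 to 1217 CPM in infarcts against 7076 to 8308 CPM in contralateral cortices, with 8 of 8 lower in infarcts. CPM are counts per 1000000 counts of the TMM-scaled library size. Markers of microglia and macrophages summed to 5885 to 9513 CPM in infarcts against 157 to 216 CPM, and those of fibroblasts to 4369 to 5289 CPM against 37.5 to 67.6 CPM, with 8 of 8 and 4 of 4 higher in infarcts. B and plasma cell markers summed to 267 to 2182 CPM in infarcts against 2.51 to 5.72 CPM, with 5 of 5 higher. T cell markers summed to 11.2 to 50.6 CPM against 0 to 0.261 CPM, 3 of 3 tested were higher, and *Cd2* and *Cd3d* were at 0 in every contralateral cortex. The astrocyte list held 2 higher and 1 lower of 4 genes (2139 to 2989 CPM against 806 to 933 CPM), the oligodendrocyte list 4 higher of 4 (3334 to 5504 CPM against 1782 to 2191 CPM), the endothelium list 3 higher of 4 (209 to 303 CPM against 167 to 188 CPM), and the red blood cell list 2 higher of 2 tested (7.86 to 26.0 CPM against 0.391 to 3.50 CPM). In bulk tissue, fewer cells of a type and less RNA per cell cannot be told apart, and the part of this cell makeup in the values that follow was not tested.

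The ribosomal protein genes were higher in infarcts as a family. Of 79 that passed the filter on low counts, 69 (87.3%) rose in infarcts at an adjusted *p* under 0.05 (edgeR quasi-likelihood test, Benjamini-Hochberg adjustment over all 15554 genes tested), where 34.2% of all genes tested did. One, *Rps15a* (1.27%), fell, against 30.8% of all genes tested, and 9 did not pass. More than a 2-fold rise was found for 38 (48.1%), against 25.7% of all genes, and no member fell by that much, against 20.9% of all genes. The number above 2-fold was 22 without infarct 1, 57 without infarct 2 and 59 with libraries scaled by their totals. The 70 genes that passed in either direction made up 88.6%, against 65% of all genes. The median log2 fold change over the 79 was 0.97, with quartiles of 0.82 and 1.29, and that of all genes tested was 0.03. The 3 infarcts lay above all 3 contralateral cortices for 67 of the 79 (84.8%), against 37.6% of all genes, and below them for *Rps15a* alone, against 34.7%.

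**Figure D1:**
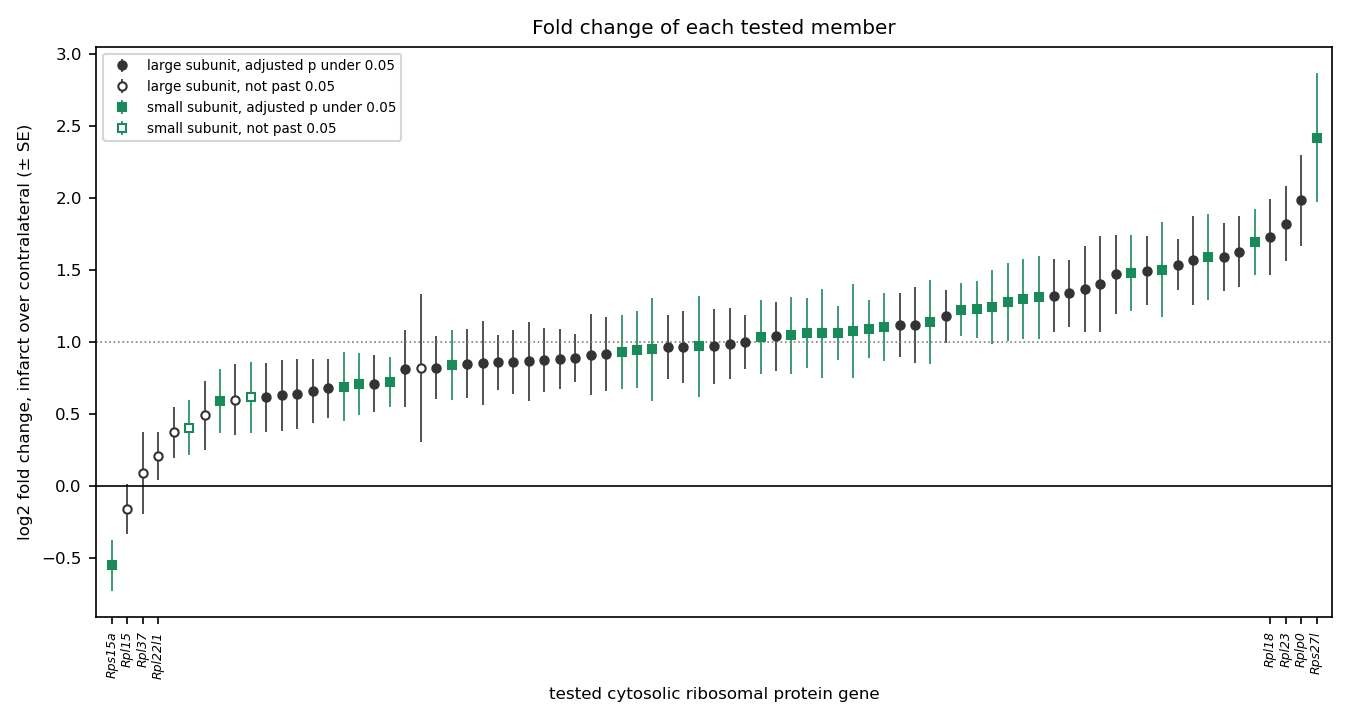
The log2 fold change of infarct over contralateral cortex (vertical axis) of each of the 79 tested ribosomal protein genes, ordered by size along the horizontal axis, with the SE as a bar and the names of the 4 lowest and 4 highest. Values ran from -0.55 (*Rps15a*) to 2.42 (*Rps27l*), and 77 of 79 lay above 0.

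Summed over the 84 genes, ribosomal protein messages took 0.710%, 0.456% and 0.534% of the gene counts of infarcts 1, 2 and 3, and 0.267%, 0.220% and 0.286% of those of contralateral cortices 1, 2 and 3. All infarcts lay above all contralateral cortices. The means were 0.567% ± 0.130 and 0.258% ± 0.0339 (SD, n = 3 each), a ratio of 2.20 (exact two-sided permutation test, *p* = 0.1, the smallest value that 3 against 3 libraries allow). Counting error was far smaller than the spread, since the 95% Wilson interval of infarct 1 ran from 0.705% to 0.715% and that of contralateral cortex 2 from 0.218% to 0.222%. The large subunit took 0.323% ± 0.0725 of infarct and 0.148% ± 0.0200 of contralateral counts, and the small subunit took 0.244% ± 0.0576 and 0.110% ± 0.0139, ratios of 2.18 and 2.22 (*p* = 0.1 for each, the same exact test). Without the counts of genes encoded in mitochondrial DNA, which take part of each library, the ratio for the whole family was 2.13.

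**Figure D2:**
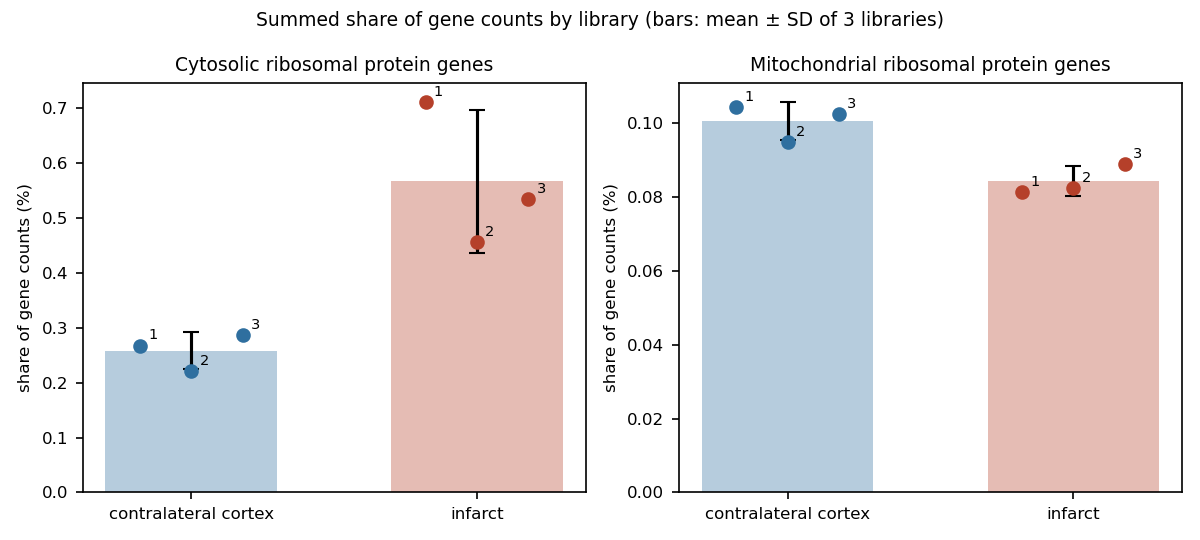
Share of gene counts (vertical axes, percent, from 0) taken by cytosolic and by mitochondrial ribosomal protein genes in each library (points), with the mean ± SD of 3 libraries per region. The cytosolic family lay at 0.456% to 0.710% in infarcts, above 0.220% to 0.286% in contralateral cortices, and the mitochondrial one lay lower in each infarct than in each contralateral cortex.

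These shares are partial, since reads that align to more than 1 place were not counted. Ribosomal protein genes have many processed pseudogenes of near-identical sequence, and 80 of the 84 genes shared at least one stretch of 75 bases with a transcript of another annotated gene. This count also takes in genes that overlap a member at its own place on either strand, whose reads can still align uniquely. Exons of 39 of the 84 genes overlapped those of another gene, so the shared portion is not a measure of pseudogenes alone. The median shared portion of a gene's 75-base windows was 40.3%, from 0% to 92.5%. The windows were those of the longest annotated protein-coding transcript of each gene. A long transcript can therefore have a low shared portion and still hold shared stretches. The levels of single members are therefore partial, and an order of levels among members describes the counted reads only. Reads with no unique place made up 14.1% to 15.6% of the tallied reads of infarcts and 15.3% to 18.2% of those of contralateral cortices. The 13 tested genes with under 10% shared windows had a median log2 fold change of 0.97, with 11 higher and 1 lower, and the 31 with at least 50% shared windows had a median of 1.04, with 28 higher. Across the 79 genes, the Spearman correlation of the shared portion with the log2 fold change was 0.06, a description over genes that share the same 6 libraries.

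Infarcts differed among themselves. Infarct 1 was the highest of the 3 for 74 of the 79 genes and infarct 2 the lowest for 70. The median member stood 1.38, 0.65 and 0.92 log2 units above its contralateral mean in infarcts 1, 2 and 3. The contralateral cortices spread less, at 0.06, -0.25 and 0.19. Infarct 1 also had the highest sums for microglia and macrophage markers (9513 CPM, against 8130 and 5885 in infarcts 2 and 3) and for B and plasma cell markers (2182 CPM, against 858 and 267). Infarct 2, the lowest for the ribosomal protein genes, was the middle library in both of these sums. Neuron markers summed to 467, 622 and 1217 CPM in infarcts 1, 2 and 3, lowest in infarct 1. Red blood cell markers summed to 26.0, 7.86 and 8.80 CPM, in the same order as the ribosomal protein genes but with infarcts 2 and 3 close. T cell, fibroblast and endothelium markers were also highest in infarct 1, and lowest in infarct 3. Astrocyte and oligodendrocyte markers were, like those of neurons, lowest in infarct 1 and highest in infarct 3. The part of these markers in the spread of the infarcts was not tested.

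**Figure D3:**
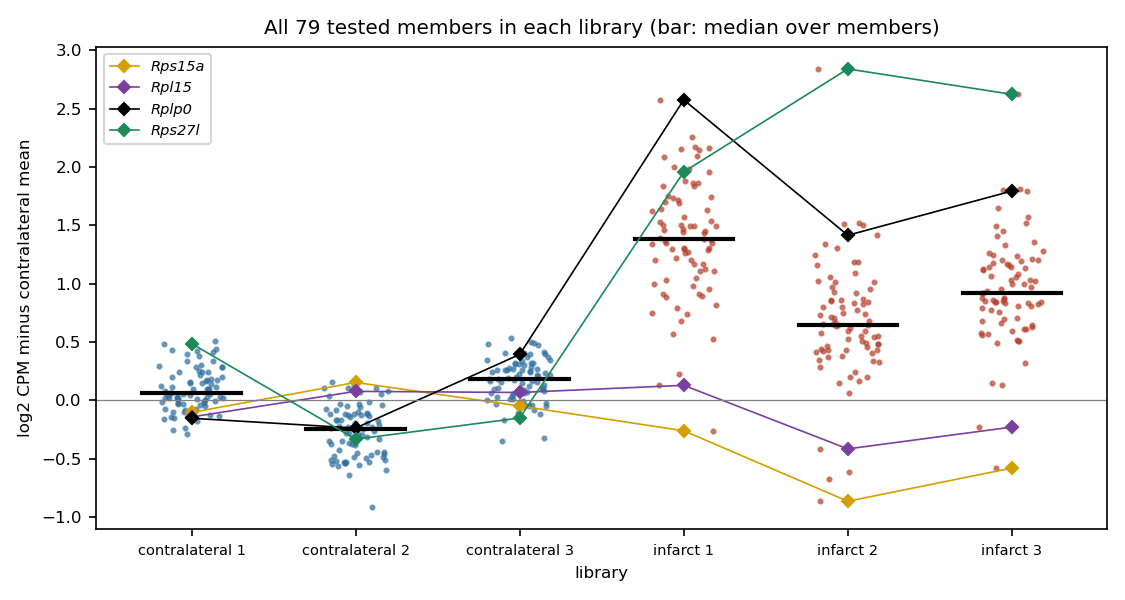
Level of all 79 tested ribosomal protein genes in each of the 6 libraries (horizontal axis), as log2 CPM minus the contralateral mean of the gene (vertical axis), with the median over genes as a bar. The medians of the infarcts were 1.38, 0.65 and 0.92, and those of the contralateral cortices lay between -0.25 and 0.19.

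The 4 genes with the largest fold changes were *Rps27l*, *Rplp0*, *Rpl23* and *Rpl18*, and the 4 with the smallest were *Rps15a*, *Rpl15*, *Rpl37* and *Rpl22l1*. Their transcription start windows are shown to set the TOP tracts of the genes at both ends of the family side by side. Each runs from 15 bases before to 15 bases from the RefSeq start on (GRCm38.p6), read 5′ to 3′ on the strand of the gene. Capitals mark every run of at least 5 C or T within 10 bases of the start.
*Rps27l* (chr9:66946071-66946100, plus strand): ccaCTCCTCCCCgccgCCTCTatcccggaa
*Rplp0* (chr5:115559452-115559481, plus strand): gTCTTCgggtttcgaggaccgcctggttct
*Rpl23* (chr11:97782425-97782454, minus strand): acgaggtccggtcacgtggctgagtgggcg
*Rpl18* (chr7:45718056-45718085, plus strand): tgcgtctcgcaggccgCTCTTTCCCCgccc
*Rpl22l1* (chr3:28805493-28805522, plus strand): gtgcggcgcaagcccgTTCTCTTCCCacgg
*Rpl37* (chr15:5116598-5116627, plus strand): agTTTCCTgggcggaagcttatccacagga
*Rpl15* (chr14:18270972-18271001, minus strand): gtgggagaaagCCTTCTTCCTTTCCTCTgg
*Rps15a* (chr7:118116133-118116162, minus strand): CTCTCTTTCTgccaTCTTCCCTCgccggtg
Of the 4 upper genes *Rps27l*, *Rplp0* and *Rpl18* have a run of at least 5 bases, and *Rpl23* has none, and all 4 lower genes have one. The capitals thus do not separate the ends. Promoter windows were matched for 64 of the 84 genes. A run of at least 5 pyrimidines lay at or within 10 bases of the start in 45 of them (70.3%), against 46.0% of 27025 genes of all kinds, and the median run was 6 bases against 4. A stricter form, a C at the annotated first base followed by 4 pyrimidines, was present in 12 (18.8%), against 2.49% of all genes. The 12 genes with the strict form had a median log2 fold change of 0.87, and the 48 other tested genes with a window had one of 1.05. An annotated start can lie some bases from the start in use, so these are descriptions of letters near it.

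The ribosomal stalk, which draws elongation factors to the ribosome, is made of the anchor protein of *Rplp0* and of dimers of the proteins of *Rplp1* and *Rplp2*. *Rplp0* (ENSMUSG00000067274, chr5:115559467-115563727, GRCm38) had 288, 129 and 167 CPM in infarcts 1, 2 and 3 and 43.4, 41.0 and 63.4 CPM in contralateral cortices 1, 2 and 3. Each infarct exceeded each contralateral cortex, and the means were 195 ± 83.0 and 49.3 ± 12.3 CPM (SD, n = 3). The log2 fold change was 1.98 ± 0.32 (SE, edgeR adjusted *p* = 0.000727), and it lay between 1.61 and 2.23 when each library was left out in turn. *Rplp2* (ENSMUSG00000025508) had 31.7, 12.8 and 18.9 CPM in the infarcts, against 7.26, 6.97 and 7.11 CPM on the contralateral side, with a log2 fold change of 1.57 ± 0.31 (edgeR adjusted *p* = 0.00153). The contralateral libraries were nearly level, while the infarcts ranged widely, with all 3 above. *Rplp1* (ENSMUSG00000007892) had 304, 197 and 219 CPM across infarcts 1 to 3 and 135, 132 and 184 CPM across the contralateral libraries. Its groups did not overlap either, but its log2 fold change was 0.68 ± 0.20 (edgeR adjusted *p* = 0.0152), and the call was lost without contralateral cortex 1 (0.59, adjusted *p* = 0.0702) or 2 (0.58, adjusted *p* = 0.0725). By counted reads, *Rplp1* was the highest member per kilobase of exon in both regions, at 481 CPM per kb in infarcts and 301 CPM per kb in contralateral cortices. The length here is that of all annotated exons of a gene merged, not of 1 transcript. Ranks per kilobase therefore depend on how many exon bases are annotated.

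Among other large subunit genes, *Rpl23* (ENSMUSG00000071415, chr11:97777527-97782437), whose protein can also bind the p53 regulator MDM2, had 61.9, 31.9 and 45.3 CPM in the infarct libraries and 14.7, 10.2 and 14.5 CPM contralaterally. Its lowest infarct was above its highest contralateral cortex, with a log2 fold change of 1.82 ± 0.26 (edgeR adjusted *p* = 0.000209). *Rpl18* (ENSMUSG00000059070, chr7:45715457-45720836) had 35.3, 22.3 and 23.5 CPM in the infarcts, against 10.6, 6.06 and 7.66 CPM on the contralateral side, without overlap, and a log2 fold change of 1.73 ± 0.26 (edgeR adjusted *p* = 0.000278). *Rpl4*, among the 3 most abundant per kilobase in both regions (121 CPM per kb in infarcts and 68.5 CPM per kb in contralateral cortices), had 335, 184 and 210 CPM across infarcts 1 to 3 and 130, 136 and 147 CPM across the contralateral libraries. Infarct 1 stood well above the other two, and the log2 fold change was 0.82 ± 0.22 (edgeR adjusted *p* = 0.00801). Other large subunit genes that rose more than 2-fold included *Rpl10a*, *Rpl10*, *Rpl39*, *Rpl7a*, *Rpl11*, *Rpl36*, *Rpl7*, *Rpl32*, *Rpl5*, *Rpl6*, *Rpl22*, *Rpl12* and *Rpl30*. *Rpl5* and *Rpl11* encode the proteins that join 5S ribosomal RNA to the large subunit, and their log2 fold changes were 1.18 and 1.40.

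Another 22 large subunit genes rose by less than 2-fold, with log2 fold changes from 0.61 (*Rpl27a*) to 0.99 (*Rpl19*). Over the whole family 52 rises were called without contralateral cortex 2, so that the calls of the smaller rises rest in part on that library. *Rpl8*, at 0.89, and *Rpl36a*, at 0.86, had the smallest adjusted *p* values of these (0.001 and 0.0028, edgeR). The 7 that did not pass were *Rpl29* (0.82, adjusted *p* = 0.186), *Rpl38* (0.60, 0.054), *Rpl3* (0.49, 0.0981), *Rpl9* (0.37, 0.0934), *Rpl22l1*, *Rpl37* and *Rpl15*. *Rpl29* passed without infarct 2 (1.25, adjusted *p* = 0.0226), as did *Rpl38* and *Rpl9* (0.73 and 0.53). *Rpl38* also passed in several other settings, among them library totals (0.80, edgeR adjusted *p* = 0.0174) and limma voom (0.64, adjusted *p* = 0.0384). *Rpl9* also passed with library totals (0.57, edgeR adjusted *p* = 0.0139). For *Rpl29* the libraries held 49, 12 and 43 counts in infarcts and 35, 17 and 15 in contralateral cortices.

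*Rpl15* (ENSMUSG00000012405, chr14:18267823-18271391) had 55.3, 37.9 and 43.1 CPM in the infarct libraries and 45.8, 53.3 and 53.0 CPM contralaterally. The regions overlapped, with infarct 1 above every contralateral cortex and the other infarcts below them. The log2 fold change was -0.16 ± 0.17 (edgeR adjusted *p* = 0.446), and the means were 45.4 ± 8.92 and 50.7 ± 4.24 CPM (SD, n = 3). *Rpl37* (ENSMUSG00000041841, chr15:5116645-5119140) had 10.8, 4.92 and 8.33 CPM in the infarcts, against 6.74, 7.81 and 8.12 CPM on the contralateral side, which lay within the infarct range. Its log2 fold change was 0.09 ± 0.29 (edgeR adjusted *p* = 0.801).

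In the small subunit, 29 of 32 genes rose, with a median log2 fold change of 1.06 over all 32. *Rpsa* (ENSMUSG00000032518), also known as the laminin receptor gene, had 130, 86.1 and 89.6 CPM across infarcts 1 to 3 and 45.8, 40.4 and 57.5 CPM across the contralateral libraries. The groups did not overlap, and the log2 fold change was 1.09 ± 0.20 (edgeR adjusted *p* = 0.000987). *Rps6* (ENSMUSG00000028495), whose protein is the substrate of the S6 kinases, had 36.9, 21 and 30.0 CPM in the infarct libraries and 16.1, 11.1 and 19.0 CPM contralaterally. Infarct 2 exceeded contralateral cortex 3 by a small margin, and the log2 fold change was 0.93 ± 0.26 (edgeR adjusted *p* = 0.01). *Rps3a1* reached 122 CPM per kb in infarcts, the next after *Rplp1*, and had 182, 79.5 and 97.0 CPM in the infarcts, against 47.7, 58.3 and 57.0 CPM on the contralateral side. Infarct 1 stood far above the other infarcts, and the log2 fold change was 1.14 ± 0.29 (edgeR adjusted *p* = 0.00837). *Rps15*, the third most abundant per kilobase in contralateral cortices (59.3 CPM per kb over 630 bases of exon), ranked 27 there by CPM. It had 73.8, 42.4 and 52.6 CPM across infarcts 1 to 3 and 42.4, 30.3 and 39.3 CPM across the contralateral libraries. The log2 fold change was 0.59 ± 0.22 (edgeR adjusted *p* = 0.0402), with infarct 2 and contralateral cortex 1 at the same level. The call for *Rps15* was lost without infarct 1 (0.37, adjusted *p* = 0.114) and without any 1 of the contralateral cortices (0.45 to 0.68, adjusted *p* = 0.0561 to 0.153). Beside *Rps27l*, *Rpsa* and *Rps3a1*, the small subunit genes that rose more than 2-fold included *Rps9* (1.69), *Rps12*, *Rps18*, *Rps23*, *Rps4x*, *Rps13*, *Rps27*, *Rps24*, *Rps25*, *Rps19*, *Rps16*, *Rps26*, *Rps10*, *Rps3* and *Rps2* (1.04). The other 9 that rose, *Rps6* and *Rps15* among them, had log2 fold changes from 0.59 to 0.97. They include *Rps27a* (0.95), which encodes its ribosomal protein as a fusion with ubiquitin. *Rps21* (0.40, edgeR adjusted *p* = 0.0887) did not pass.

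*Rps15a* (ENSMUSG00000008683, chr7:118104372-118116188), which encodes a small subunit protein, was the only member that fell. It had 61.2, 40.2 and 49.0 CPM in the infarct libraries and 68.2, 81.5 and 70.9 CPM contralaterally, from 548 to 1306 counts per library. Every infarct lay below every contralateral cortex, with means of 50.1 ± 10.5 and 73.5 ± 7.04 CPM (SD, n = 3) and a log2 fold change of -0.55 ± 0.18 (edgeR adjusted *p* = 0.0199). This call was lost when libraries were scaled by their totals (-0.35, adjusted *p* = 0.0886), without infarct 2 (-0.40, adjusted *p* = 0.0854) and without contralateral cortex 2 (-0.48, adjusted *p* = 0.0764), and the value stayed negative in each. In the longest protein-coding transcript of *Rps15a*, 4.13% of the 75-base windows were shared, with transcripts of 5 other genes. Its shorter transcripts were not examined, and its merged exons span 6270 bases. Among the infarcts *Rps15a* was highest in infarct 1 and lowest in infarct 2, the order in which the family as a whole ran.

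**Figure D4:**
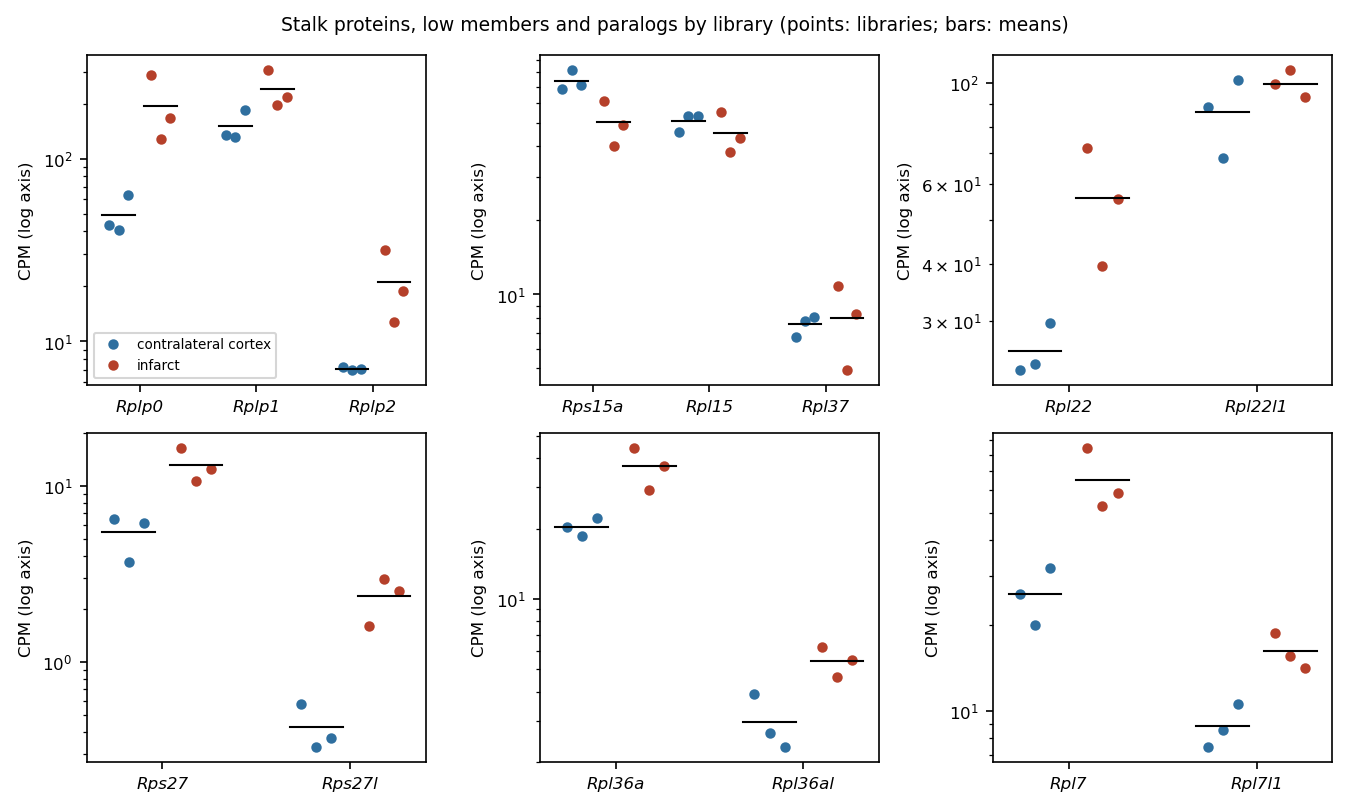
CPM on a log axis (vertical) of the stalk genes, of the genes at the lower end of the family and of paralog pairs in each library (points), with the mean of 3 libraries as a bar. *Rplp0* lay at 129 to 288 CPM in infarcts against 41.0 to 63.4 CPM in contralateral cortices, while *Rps15a* lay at 40.2 to 61.2 CPM against 68.2 to 81.5 CPM.

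A few members have a close paralog within the family. *Rps27l* (ENSMUSG00000036781, chr9:66946086-66949516), a p53-inducible relative of *Rps27*, had the largest fold change but few counts, 20, 40 and 37 in infarcts and 11, 5 and 4 in contralateral cortices. Its levels were 1.59, 2.94 and 2.53 CPM in the infarcts, against 0.575, 0.326 and 0.369 CPM on the contralateral side, without overlap, with a log2 fold change of 2.42 ± 0.45 (edgeR adjusted *p* = 0.000949). Unlike most of the family, it was lowest in infarct 1, and its low contralateral counts mean that it passed the filter through the infarcts. *Rps27* (ENSMUSG00000090733) had 16.5, 10.7 and 12.5 CPM across infarcts 1 to 3 and 6.48, 3.71 and 6.18 CPM across the contralateral libraries, also without overlap, and a log2 fold change of 1.28 ± 0.27 (edgeR adjusted *p* = 0.00217). The difference between these paralogs was not tested.

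*Rpl22* (ENSMUSG00000028936) had 71.9, 39.7 and 55.6 CPM in the infarct libraries and 23.3, 24.1 and 29.6 CPM contralaterally, all infarcts above, and a log2 fold change of 1.12 ± 0.22 (edgeR adjusted *p* = 0.00158). Its paralog *Rpl22l1* (ENSMUSG00000039221, chr3:28805436-28807424) had 99.4, 106 and 92.9 CPM in the infarcts, against 88.4, 68.4 and 101 CPM on the contralateral side. Those ranges overlapped, and the log2 fold change was 0.21 ± 0.17 (edgeR adjusted *p* = 0.29). Per kilobase of exon, the counted reads of *Rpl22l1* came to 43.3 CPM per kb in contralateral cortices and 50.1 CPM per kb in infarcts, and those of *Rpl22* to 8.82 and 19.1 CPM per kb. Of the windows of *Rpl22l1* 58.6% were shared, and of those of *Rpl22* 1.42%, so these levels are not on an equal footing.

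*Rpl7* rose from 25.9 ± 5.89 to 65.4 ± 17.0 CPM (25.9, 20.1 and 31.8 CPM in contralateral cortices and 84.8, 52.9 and 58.6 CPM in infarcts), with a log2 fold change of 1.34 ± 0.23 (edgeR adjusted *p* = 0.000649). *Rpl7l1*, whose protein acts in ribosome assembly, had 18.8, 15.6 and 14.2 CPM across infarcts 1 to 3 and 7.42, 8.53 and 10.5 CPM across the contralateral libraries, and the log2 fold change was 0.88 ± 0.21 (edgeR adjusted *p* = 0.00396). Both genes were without overlap between regions. *Rpl36a* on the X chromosome had 44.4, 29.2 and 37.2 CPM in the infarct libraries and 20.3, 18.6 and 22.2 CPM contralaterally, with a log2 fold change of 0.86 ± 0.19 (edgeR adjusted *p* = 0.00277). Its autosomal relative *Rpl36al* had 6.21, 4.63 and 5.46 CPM in the infarcts, against 3.92, 2.67 and 2.31 CPM on the contralateral side, and the log2 fold change was 0.85 ± 0.29 (edgeR adjusted *p* = 0.0249). The call for *Rpl36al* was lost without infarct 1 (0.76, adjusted *p* = 0.0568) and without contralateral cortex 2 (0.77, adjusted *p* = 0.0813) or 3 (0.71, adjusted *p* = 0.0816). The pair rose by similar factors from different levels, and 84.6% of the windows of *Rpl36a* were shared with other transcripts.

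The paralogs known from muscle and testis were barely detected. *Rpl3l*, a muscle form of *Rpl3*, had 2 counts in contralateral cortex 1 and 0 in the other libraries, and *Rpl10l*, a testis form of *Rpl10*, had 0 in every library. *Rpl39l*, a testis form of *Rpl39*, had 2, 2 and 7 counts in infarcts and 3, 2 and 2 in contralateral cortices. Their partners were detected in quantity. *Rpl3* had 255, 165 and 220 CPM across infarcts 1 to 3 and 153, 107 and 195 CPM across the contralateral libraries, with overlap and a log2 fold change of 0.49 ± 0.24 (edgeR adjusted *p* = 0.0981), which passed without infarct 2 (0.67, adjusted *p* = 0.0387) or contralateral cortex 3 (0.71, adjusted *p* = 0.0367). *Rpl10* had 69.1, 54.3 and 53.6 CPM against 21.2, 13.2 and 24.5 CPM, with a log2 fold change of 1.59 ± 0.24 (edgeR adjusted *p* = 0.00024). *Rpl39* had 130, 69.2 and 77.2 CPM against 34.8, 28.4 and 34.9 CPM, and the log2 fold change was 1.50 ± 0.24 (edgeR adjusted *p* = 0.000473). For *Rpl10* and *Rpl39* each infarct exceeded each contralateral cortex. The other genes that were not tested were *Rpl23a*, with 5, 1 and 1 counts in infarcts and 3, 2 and 4 in contralateral cortices, and *Rpl24*, with 2, 8 and 5 against 7, 4 and 2. Of their 75-base windows 81.7% and 80.9% were shared with other transcripts, so their low counts say little about their expression.

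The balance within the family was described by centering each library on the median log2 CPM of its 79 members, which does not depend on the scaling of the library. The median absolute difference of a member between regions was then 0.27 log2 units, and 64 of 79 members lay within 0.5. The median SD between libraries of a region was 0.14 in infarcts and 0.21 in contralateral cortices. Relative to the family, 14 genes (17.7%) were higher in every infarct than in every contralateral cortex, among them *Rplp0* (a difference of 0.91), *Rpl23* (0.77), *Rpl18* (0.73) and *Rps9* (0.64), against 17.9% of all genes tested on the same scale. Another 12 (15.2%) were lower in every infarct, against 57.6% of all genes, among them *Rps15a* (-1.58), *Rpl15* (-1.19), *Rpl37*, *Rpl22l1* (-0.79), *Rpl9* (-0.66) and *Rplp1* (-0.35). Since the centering uses the members' own median, which rose, the shares of all genes on this scale follow from that rise and say nothing about the balance. The SD of the fold changes over the 79 genes was 0.46 log2 units and their median SE was 0.25. The order of the levels per kilobase was close in both regions (Spearman correlation of 0.95 over 79 genes, which share length and shared windows).

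Other genes of translation were set beside the family from lists of their roles or names. Among genes of proteins found in or on the ribosome under other names, *Fau*, which encodes the 40S protein eS30 fused to a ubiquitin-like domain, rose (log2 fold change 1.52, edgeR adjusted *p* = 0.000764), as did *Rack1*, which encodes a scaffold on the small subunit (1.48, adjusted *p* = 0.000986).

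Of the TOP messages outside the family, 15 of 19 tested (78.9%) were higher, against 34.2% of all genes tested, with a median of 0.71. This list is not separate from those that follow. Genes such as *Pabpc1* and *Eef1a1* are counted again in the initiation or elongation list. Those with the smallest *p* were *Vim*, the intermediate filament gene (5.29), *Pabpc1*, which encodes the poly(A)-binding protein (2.05), *Tpt1* (1.98) and *Eef1a1* (1.34), with edgeR adjusted *p* values from 4.2e-07 to 0.000434. *Nap1l1* had the lowest value (-0.36, adjusted *p* = 0.0523).

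Of 43 genes listed with the initiation factors, *Eif5a*, *Eif5a2* and *Eif6* by name only, 13 (30.2%) were higher and 7 (16.3%) lower. The shares of all genes tested were 34.2% and 30.8%, and the median of the list was 0.25. The share of higher genes was thus near that of all genes. Beside *Pabpc1*, those with the smallest *p* were *Eif4e3* (1.35), *Eif4a1* (1.02) and *Eif1a* (0.70), which rose, and *Eif5a2* (-1.50), *Eif1ax* (-1.60), *Eif4a2* (-0.92) and *Eif4e* (-0.69), which fell. Of 12 elongation and termination genes 4 (33.3%) were higher and 2 (16.7%) lower, with a median of 0.05. *Eef1a1*, the elongation factor of most cells, had 5738 ± 1104 CPM in the infarct libraries and 2268 ± 384 CPM contralaterally (SD, n = 3, log2 fold change 1.34, edgeR adjusted *p* = 0.000434). *Eef1a2*, its counterpart in neurons and muscle, had 26.2 ± 11.8 and 187 ± 44.7 CPM (-2.84, adjusted *p* = 0.000111). *Eef1b2* (1.33), *Eef2* (0.68) and *Etf1* (0.45) rose, and *Gspt2* fell (-1.28). The calls for *Eef2* and *Etf1* were lost without infarct 1 (0.48 and 0.29, adjusted *p* = 0.0539 and 0.108) and without contralateral cortex 1 or 2, and that for *Etf1* also without contralateral cortex 3 and with DESeq2 (adjusted *p* = 0.0587 and 0.0614).

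Among 9 tested inhibitors of translation 3 (33.3%) were higher and 1 (11.1%) lower, against 34.2% and 30.8% of all genes tested, with a median of 0.04. The double-stranded RNA-dependent kinase gene *Eif2ak2* (2.99) and the mTORC1 substrates *Eif4ebp1* (1.90) and *Eif4ebp2* (0.89) rose, and *Eef2k* fell (-0.69). Another list of 14 genes held mTORC1, its regulators and the S6 kinases, together with the kinases *Rps6ka1*, *Rps6ka2* and *Rps6ka3* and with *Myc*. Of these, 2 (14.3%) were higher and 8 (57.1%) lower, with a median of -0.49. *Rps6ka1* (2.24) and *Myc* (1.92), the higher genes, are thus neither mTORC1 subunits nor *Rps6kb* genes. *Rps6ka2* (-1.49), *Mtor* (-1.06), *Rptor* (-0.69) and *Rheb* (-0.60) fell. The regulators *Tsc1* (-0.63) and *Tsc2* (-0.37) were also lower. Of the *Rps6kb* genes, *Rps6kb1* fell (-0.62 ± 0.16, edgeR adjusted *p* = 0.00783), and *Rps6kb2* had -0.27 ± 0.38 (adjusted *p* = 0.552). The call for *Rps6kb1* was lost with library totals (-0.42, adjusted *p* = 0.0598).

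Of 44 ribosome biogenesis genes 10 (22.7%) were higher and 10 lower, against 34.2% and 30.8% of all genes tested, with a median of -0.02. The nucleolar genes *Ddx21* (1.41), *Npm1* (1.02), *Wdr43* (0.66) and *Heatr1* (0.60) rose, and *Rrp12* (-1.26), *Wdr12* (-1.23), *Tsr1* (-0.89) and *Rrn3* (-0.73) fell. The call for *Heatr1* was lost without contralateral cortex 3 (0.47, adjusted *p* = 0.0541). None of the 6 tested snoRNA host genes passed the test (edgeR, smallest unadjusted *p* = 0.0642 for *Snhg12*), with values from -0.83 to 0.55. Of 268 annotated ribosomal protein pseudogenes with "-ps" in the symbol 2 were tested, *Rpl39-ps* (1.94, edgeR adjusted *p* = 0.0049) and *Rps27a-ps2* (0.80, adjusted *p* = 0.153). The 266 of these named after a member together held 118 to 247 counts per library, which is 0.228% to 0.398% of the counts of the 84 genes. Pseudogenes under other symbols were not included.

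The genes of the mitochondrial ribosome, which translates the messages of mitochondrial DNA, had a median log2 fold change of -0.26 over 75 tested, with 4 (5.33%) higher and 16 (21.3%) lower, against 34.2% and 30.8% of all genes tested. *Mrpl52* (1.06), *Mrps28* (0.95), *Mrpl36* (0.59) and *Mrpl24* (0.58) rose, and *Mrpl48* (-1.45), *Mrps17* (-1.14), *Mrpl35* (-1.19) and *Mrps26* (-1.97) were the lower ones with the smallest *p*. Each of the 4 calls of a rise was lost without at least one library, among them contralateral cortex 2 (0.96, 0.75, 0.35 and 0.59, adjusted *p* from 0.102 to 0.145). Those for *Mrps28* and *Mrpl24* were also lost with DESeq2 (adjusted *p* = 0.0919 and 0.0789). Their summed share was 0.0843% ± 0.00410 of gene counts in infarcts and 0.101% ± 0.00503 in contralateral cortices (n = 3 each), a ratio of 0.838, against 2.20 for the cytosolic family (exact two-sided permutation test, *p* = 0.1, the smallest possible).

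**Figure D5:**
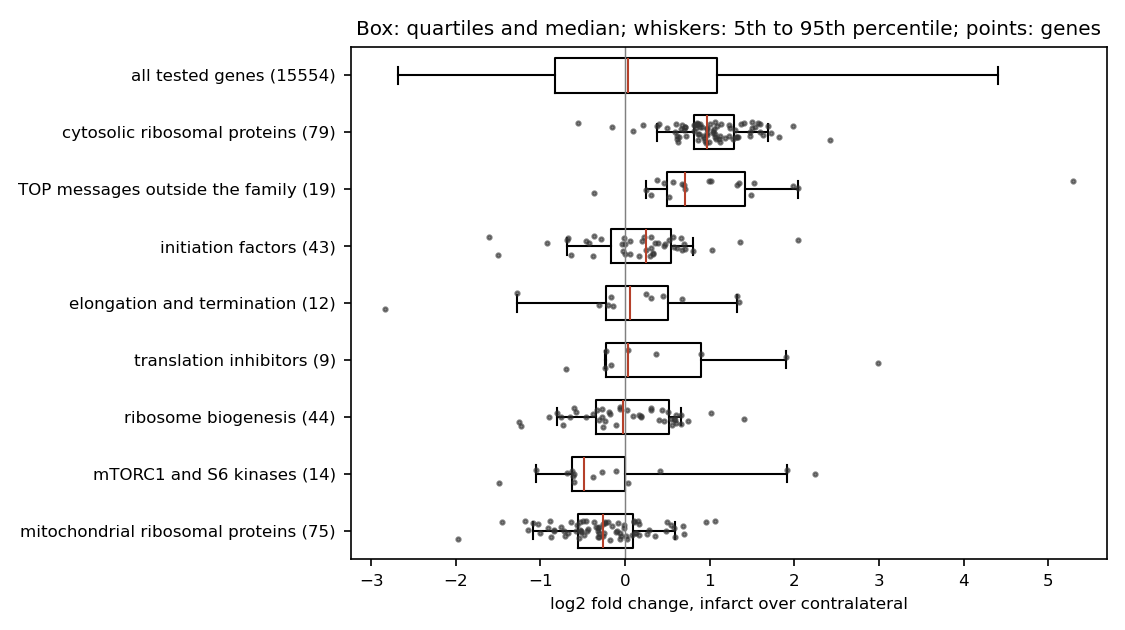
Log2 fold changes of infarct over contralateral cortex (horizontal axis) of the tested genes of the cytosolic ribosomal protein family and of each other list of translation genes, with quartiles and median as a box, the 5th and 95th percentiles as whiskers and genes as points. The median of the family was 0.97 and that of the mitochondrial ribosomal protein genes was -0.26.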

How the data were processed

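Per the labels and the methods of the study, the authors prepared stranded poly(A) libraries, demultiplexed with bcl2fastq 2.19, trimmed with Trimmomatic 0.32, aligned to GRCm38 with STAR 2.5.2b and made the deposited raw counts per Ensembl gene with HTSeq. Its version, annotation and strand setting are not given in the sources used here. Reads with several places, with no gene or with several genes stand in 5 entries that were left out of all totals.

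Counts were tested in R 4.3.3 with edgeR 4.0.16 (filterByExpr, TMM, robust quasi-likelihood, region as the only term, biological coefficient of variation 0.220), adjusted over 15554 genes by the Benjamini-Hochberg method. Genes were matched to GENCODE M21 on GRCm38, without a match for 935 identifiers. The 84 genes and the other lists were chosen with earlier results of these data known. Full values were given for the 4 largest and 4 smallest fold changes, the 3 most abundant genes per kilobase in each region, *Rps6*, *Rpsa*, the stalk genes and the paralogs. From each other list, up to 4 genes per direction by *p* were named with the log2 fold change, and only some with further values. *Tsc1* and *Tsc2* were named beside these. Protein sequences were not used here, and a few single genes are not reported here. The alternatives used limma 3.58.1 and DESeq2 1.42.0, and summaries and plots Python 3.11.15, pandas 2.3.3, SciPy 1.17.1 and matplotlib 3.10.9. The procedure was also run on simulated data with far fewer changed genes than were called here, so that run does not bear on the scaling of these libraries. Intervals cover counting error only. The sample records do not give pairs, so the replicate numbers were not used as pairs in the main test. Deviations of same-numbered infarcts and contralateral cortices had correlations of -0.19, 0.10 and 0.00, and other combinations -0.24 to 0.18. With 3 libraries per region, these values cannot show whether the same number marks the same mouse.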

Additional observations from a re-analysis of the deposited data

How the results depend on the processing

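The number of ribosomal protein genes that rose (69 of 79) was 67 to 74 under RLE, upper quartile and library total scaling, DESeq2, limma voom, no filter, at least 10 counts in every library and counts of the "-ps" pseudogenes added to their parent genes. It ranged from 52 (without contralateral cortex 2) to 75 (without infarct 2) when each library was left out, and the median log2 fold change from 0.76 to 1.15. The number above 2-fold (38) was 59 with library totals, which move the median of all genes from 0.03 to 0.23, and 22 (without infarct 1) to 57 (without infarct 2) when each library was left out. The number that fell was 0 with library totals and 0 to 1 with each library left out. With library totals *Rpl15* turned to a log2 fold change of 0.042. With each library left out, *Rpl37* ran from -0.16 (without infarct 1, below 0 also without contralateral cortex 1) to 0.36, and *Rps6kb2* from -0.56 to 0.021 (without infarct 1). Over all other lists without pseudogenes, 43 of 211 genes were higher, where 34.2% of all genes tested were. With each library left out the count ran from 23 (without contralateral cortex 2) to 44, with 26 without contralateral cortex 1. Without contralateral cortex 2, 31.0% of all genes tested were higher. In these lists 15 genes fell by more than 2-fold, against 9 with library totals. Of all genes tested, 20.9% fell by that much. The causes were not tested. A run of at least 7 pyrimidines was present in 48.4% of the 64 start windows (20.1% of all genes), and the strict form, chosen after seeing the data, in 18.8%. The replicate number was also used as a block, a pairing that the sample records do not give. With this block 73 genes rose, 1 fell and 36 rose more than 2-fold. The calls for *Etf1*, *Mrpl52*, *Mrps28*, *Mrpl36* and *Mrpl24* were then lost (edgeR adjusted *p* = 0.0705, 0.0592, 0.0768, 0.0505 and 0.0874). Reads shared with pseudogenes limit the levels of single genes, and 3 libraries per region limit every comparison.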
